A study of Mus musculus with 21 samples.

Results

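The 37 genes described here encode the replicative helicase, the enzymes that supply nucleotides, the cyclins and mitotic kinases, and the transcription factors that drive the mammalian cell cycle. They were chosen by name for these functions out of 22367 protein-coding genes in the mm9 annotation, and all 37 were found there. No measured value was a criterion, but earlier results of these data were known when the genes were chosen. VDR-binding peaks were counted for a gene when they overlapped the gene body extended by 10 kb on each side, and a promoter was taken as the 1 kb on each side of an annotated transcription start site (TSS). Positions of sites are given from the 5′ end of the gene, negative upstream.

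The sites occupied by the vitamin D receptor (VDR), the nuclear receptor through which 1,25(OH)2D3 acts, were mapped by ChIP-seq in colon epithelium and in the crypts and villi of the small intestine (SI) of C57BL/6J mice, with 4 samples of each compartment. Open chromatin was mapped by ATAC-seq, which marks DNA that a transposase can reach, with 3 samples of each. The ChIP-seq mice, 4 to 6 weeks old by the labels, all received 1,25(OH)2D3 at 10 ng/g by intraperitoneal injection and were killed 1 h later. Vehicle-treated mice were not analysed here by ChIP-seq and no input control entered the peak calls, so a peak marks where VDR was found after treatment, not how far treatment changed its binding. The ATAC-seq mice were 90 days old by the labels. The labels repeat the hormone protocol for them, whereas the methods of the study describe them as untreated, and the age given for the ChIP-seq mice also differs between the labels and the methods. Neither point could be settled from these files. Colon epithelium was scraped from the tissue, and duodenal villi were held back by a strainer that let the crypts pass. The compartments of each assay came from 1 group of mice, and a mouse may have given more than 1 sample, which the labels do not trace, so p-values measure only the spread between these samples. Each compartment is a mixture of cells, and a peak in fewer cells cannot be told apart from a weaker peak in each cell.

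In a dividing cell, the minichromosome maintenance (MCM) proteins are loaded onto replication origins by Cdc6 and Cdt1 and later unwind the DNA, while E2F factors drive the genes needed for S phase. Cyclin-dependent kinases, above all Cdk1 with cyclin B, then bring the cell into mitosis, where the Aurora kinases, Plk1 and the spindle checkpoint separate the chromosomes. In the intestine, division is restricted to the crypts, and the cells on the villus are differentiated. Treatment with 1,25(OH)2D3 is known to slow the division of many cultured cells.

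Enrichment is given throughout as the fold enrichment written by the peak caller MACS2, which is the signal at a peak's summit over the local background of the same sample. Peaks called on the merged reads of a compartment are called pooled peaks, and a pooled peak was called supported when a peak of a single sample overlapped it. The pooled lists held 22882 VDR peaks in colon, 12702 in crypt and 18078 in villus, and single VDR samples held 1136 to 13381. The pooled ATAC-seq lists held 39428, 74734 and 64782 peaks in these compartments. Crypt sample 1 stood apart: it kept only 3100376 of 10859762 fragments after removal of duplicates (28.5%), the fewest of the 12 samples, and gave the most peaks. Promoter accessibility of marker genes followed the labels in part: 3 of 8 enterocyte genes were open in colon, 6 in crypt and 8 in villus. Among 7 colon genes, 6 were open in colon, 3 in crypt and 5 in villus. Of 6 small intestinal crypt genes, 3 were open in colon, 6 in crypt and 6 in villus. By this count, the crypt genes did not separate crypt from villus. Of 6 immune genes none had an open promoter in any compartment, and of 6 stromal genes 1 was open in colon, 2 in crypt and 2 in villus. Cyp24a1, the 24-hydroxylase that inactivates 1,25(OH)2D3 and a classical VDR target, had a VDR peak in each of the 12 samples and a highest -log10 q of 142.5 in colon, 211.3 in crypt and 702.4 in villus.

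The sequences at the strongest and best supported VDR sites near the 37 genes show how far they carry the element that VDR recognises with its partner RXR, the DR3, a direct repeat of a hexamer spaced by 3 bases. Each is the mm9 plus strand around the summit of a VDR site, and capitals mark the closest match to the DR3 where it differs from the consensus at no more than 2 positions.
E2f2, chr4:135742621-135742740: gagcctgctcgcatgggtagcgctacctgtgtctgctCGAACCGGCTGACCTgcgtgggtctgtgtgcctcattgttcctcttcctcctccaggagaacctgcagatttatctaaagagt
Birc5, chr11:117708230-117708349: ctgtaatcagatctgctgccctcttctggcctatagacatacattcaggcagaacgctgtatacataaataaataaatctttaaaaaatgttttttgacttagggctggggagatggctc
Rrm1, chr7:109619155-109619314: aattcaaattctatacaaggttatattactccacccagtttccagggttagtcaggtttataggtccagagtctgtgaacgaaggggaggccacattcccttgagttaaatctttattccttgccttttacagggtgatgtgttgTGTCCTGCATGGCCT
The first lies in an intron of E2f2 and runs into the exon that follows, 34 bp from the summit, and its DR3 match, on the minus strand, differs at 1 position. At the Birc5 site the closest match differs at 4 positions, so no base is capitalised, and at the Rrm1 site it differs at 2 positions and lies at the edge of the window. Across the 66 sites near the 37 genes, 0 held an exact DR3 within 200 bp centred on the summit, 3 held one with up to 1 mismatch and 17 one with up to 2. The 3 sites were the E2f2 intron, a site 6.67 kb past the 5′ end of Cdc20 and a site 9.55 kb past the 5′ end of Tk1. Neighbouring Tk1 sites had the same summit, so that sequence, at 3 mismatches, was counted more than 1 time. Over all pooled peaks, an exact match was found at 2.05% in colon, 2.31% in crypt and 1.69% in villus. A match with up to 1 mismatch was found at 10.4%, 9.7% and 8.24%, and one with up to 2 at 35.2%, 29.9% and 28.9%. Of the 1000 strongest peaks of the same compartments, 33.1%, 34.1% and 33.3% had a match with up to 1 mismatch.

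VDR peaks lay near 22 of the 37 genes in colon (59.5%), 20 in crypt (54.1%) and 16 in villus (43.2%). The same window held a pooled VDR peak at 51.5% of all protein-coding genes in colon, 38.9% in crypt and 44.8% in villus. The median gene length was 13.9 kb among the 37 genes and 15.4 kb among all genes. Peaks of all 3 compartments lay near 11 genes, 9 further genes had peaks in a single compartment, and 9 had none: Mcm3, Mcm4 and Mcm5 of the helicase, the cyclin genes Ccna2, Ccnb1 and Ccne1, the topoisomerase Top2a, the checkpoint kinase Bub1b, and E2f1. Mcm4 is on this list although a peak was called there, as described with the helicase genes.

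At least 1 single sample also called 38.1% of the pooled peaks near the 37 genes in colon, against 49.2% of all pooled peaks, 53.3% in crypt, against 64.6%, and 54.2% in villus, against 50.4%. Supported peaks lay near 12 genes in colon (32.4%, against 36.1% of all genes), 15 in crypt (40.5%, against 30.7%) and 11 in villus (29.7%, against 31.5%). Support in at least 2 samples was found for 5 genes in colon (13.5%, against 20.3% of all genes), 1 in crypt (2.7%, against 9.91%) and 5 in villus (13.5%, against 18.5%). Of the 15 genes supported in crypt, 14 rested on sample 1 alone. With samples 2 to 4, only E2f2 remained, or 1 of 37 genes, against 11.9% of all genes. Without colon sample 4, which had the most peaks in colon, supported peaks lay near 5 genes in colon.

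Most of the 37 genes had open promoters, and so the count can also be set beside genes with open promoters. Among these, VDR peaks lay near 57.6% of the 33 cell cycle genes in colon, against 77.1% of all such genes. The shares were 54.5% against 56.1% in crypt and 45.5% against 67.7% in villus. A VDR peak within 1 kb of a TSS was found at 27.3% of the open cell cycle genes in colon, against 44.4% of all open genes, at 24.2% against 32.1% in crypt, and at 21.2% against 46.5% in villus. These shares describe the list and were not tested.

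**Figure D1:**
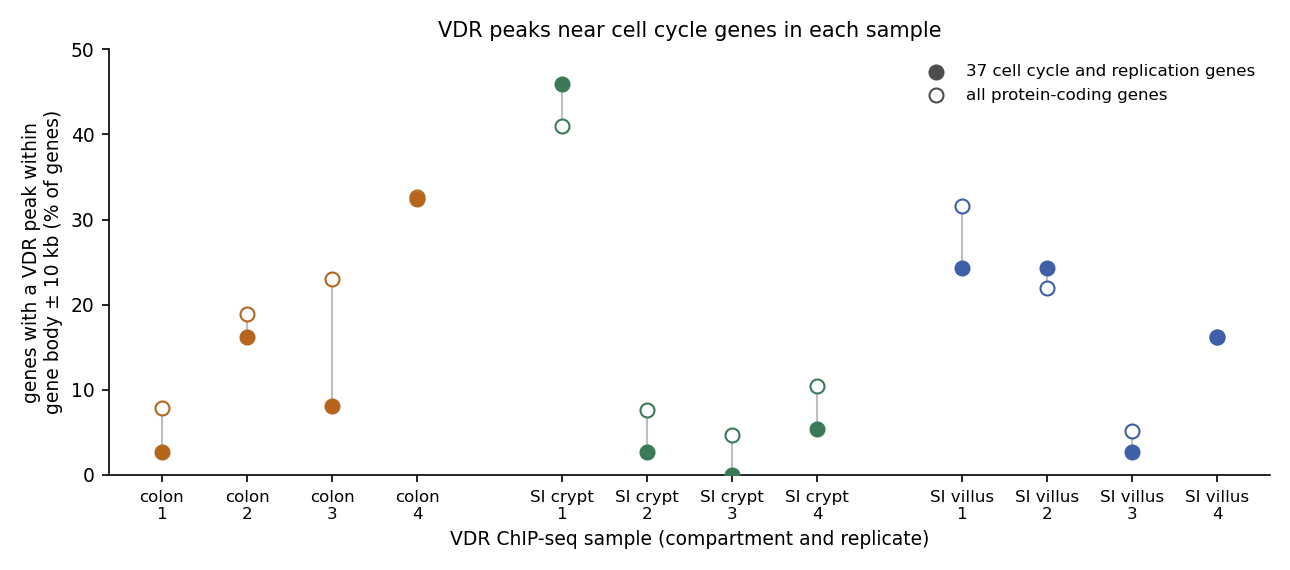
Share of genes with a VDR peak within the gene body ± 10 kb in each VDR ChIP-seq sample (percent, y axis) for the 37 cell cycle genes and for all protein-coding genes, by compartment and sample. The 37 genes were at 45.9% in crypt sample 1 and at 0 to 5.41% in the other crypt samples.

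By sample, the number of the 37 genes with a VDR peak was 1, 6, 3 and 12 in colon samples 1 to 4, 17, 1, 0 and 2 in crypt, and 9, 9, 1 and 6 in villus. The share of all genes was 7.83% to 32.6% in colon, 4.74% to 41% in crypt and 5.11% to 31.6% in villus. In crypt sample 3, 0 of the 37 genes had a peak, against 4.74% of all genes in that sample. The compartments overlapped in all pairs. The number of samples with a peak was compared for each gene with a two-sided Fisher's exact test and Benjamini-Hochberg adjustment over all genes with a peak in the pair. No gene passed: 0 of 11718 genes (0%) for colon against crypt, 0 of 11254 (0%) for colon against villus and 0 of 11299 (0%) for crypt against villus, with 87, 140 and 11 genes at an unadjusted p under 0.05. With 4 samples against 4, the smallest p this exact test allows is 0.02857, and no adjusted p was below 1. The lowest p among the 37 genes in the exact test was 0.1429, for Birc5, which had a peak in 3 colon samples, against 0 crypt and 0 villus samples, and for Mcm6, which had a peak in 0 colon samples, against 3 villus samples.

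**Figure D2:**
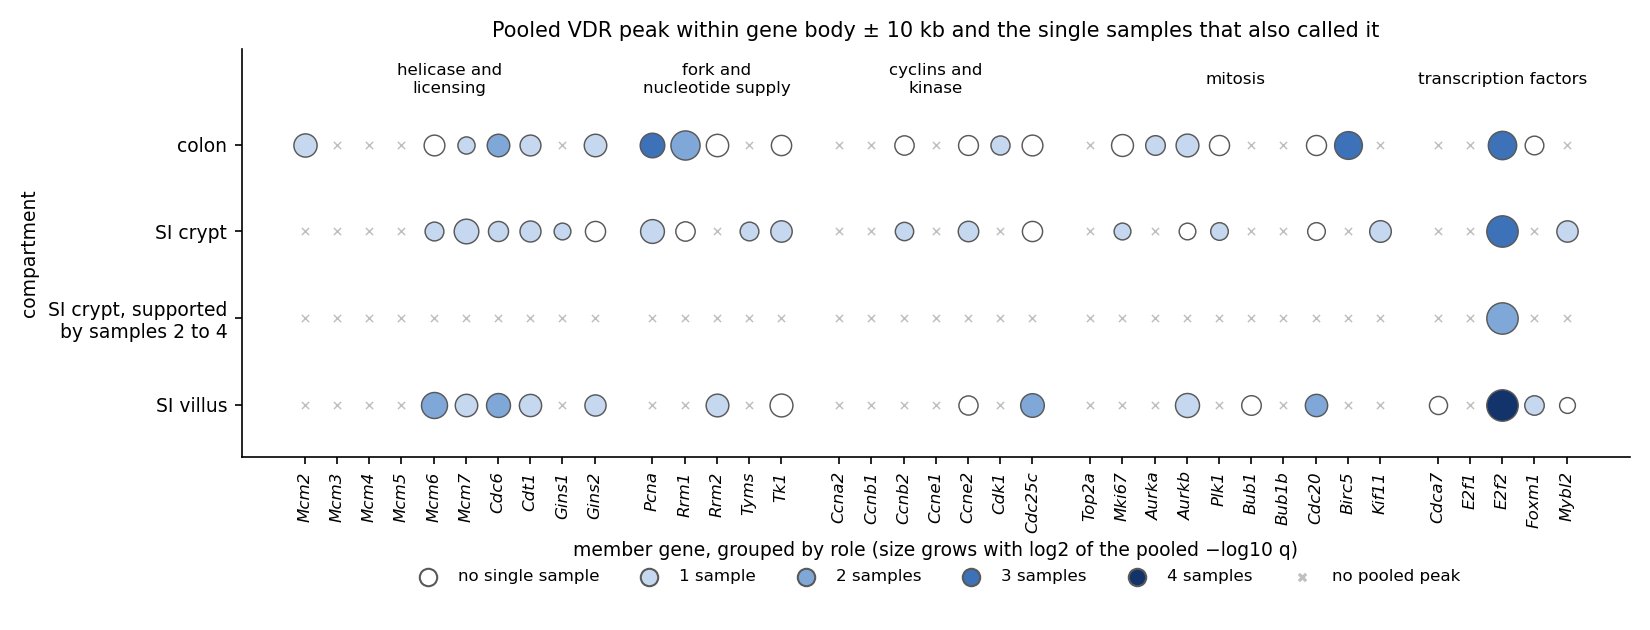
The 37 genes, grouped by role (x axis), in the 3 compartments and in crypt with support counted from samples 2 to 4 (y axis), where a circle is a pooled VDR peak within the gene body ± 10 kb, its colour the number of single samples that also called it and its size the pooled -log10 q on a log2 scale, and a cross is no pooled peak. E2f2 was the only gene with support from more than 1 sample in all 3 compartments, and crypt support came from sample 1 alone at 14 of 15 genes.

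The 66 sites that these peaks formed were mostly weak. No single sample supported 29 of them, 15 were supported by 1 sample, 15 by 2 samples and 7 by 3 or more, and 10 rested on crypt sample 1 alone. They lay in promoters at 14 sites, upstream at 13, in introns at 10, in coding exons at 3, in untranslated exons at 2 and downstream at 24. For 35 of the 66 sites the nearest TSS was that of the cell cycle gene, and for the other 31 it belonged to a neighbour. The median -log10 q of the peaks near the 37 genes was 5.25 in colon, 3.89 in crypt and 7.84 in villus, against 5.98, 5.97 and 6.08 over all pooled peaks of these compartments. Of these peaks, 50% overlapped an ATAC-seq peak in colon, against 41.9% of all pooled VDR peaks, 56.7% in crypt, against 50.4%, and 62.5% in villus, against 56.3%.

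Among the transcription factors, E2f2 held the strongest VDR site of all 37 genes. E2f2 is an activator E2F that drives S-phase genes. The site, at chr4:135742366-135743005, lay 14.4 kb from the gene's 5′ end and 5.96 kb past the nearest annotated TSS, in an intron. In colon, samples 2, 3 and 4 had fold enrichments of 6.76, 6.89 and 8.44 and sample 1 had no peak. In crypt, samples 1, 2 and 4 had 15.4, 15.6 and 6.58 and sample 3 had no peak, and in villus the 4 samples had 16, 17.6, 6.3 and 7.05. It was thus called in 10 of 12 samples, and the highest values were those of samples 1 and 2 of both SI compartments. The means were 7.36 ± 0.935 in colon (SD, n = 3), 12.5 ± 5.15 in crypt (SD, n = 3) and 11.7 ± 5.89 in villus (SD, n = 4), over the samples with a peak. The -log10 q of the pooled peak was 40.4 in colon, 104.9 in crypt and 107.2 in villus. It ranked 1457 of 22882 peaks in colon, 277 of 12702 in crypt and 538 of 18078 in villus.

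E2f2 was also the only one of the 37 genes with enough values for a comparison of VDR enrichment, which limma fitted to 1957 genes that had a peak in at least 2 samples of each compartment. The fit for E2f2 used the 10 samples with a peak, and a sample without a peak has no value, which raises the level of its group. The log2 difference was -0.46 (SE 0.34, limma adjusted p = 0.628) for colon against crypt, -0.26 (SE 0.31, adjusted p = 0.678) for colon against villus and 0.20 (SE 0.31, adjusted p = 0.938) for crypt against villus. None of these differences passed the test. Of all genes, 12 passed for colon against crypt (0.613%), 104 for colon against villus (5.31%) and 0 for crypt against villus (0%), where 132 had an unadjusted p under 0.05. With the replicate number as a block, 40, 142 and 4 genes passed, and the E2f2 differences were -0.26, -0.14 and 0.12.

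The strongest ATAC-seq peak within 1 kb of the E2f2 summit had its own summit 382 bp past it in colon, 527 bp in crypt and 467 bp in villus. In the deposited intervals this peak overlapped the VDR site in colon and villus. In crypt it did not, and a weaker ATAC-seq peak that no single sample called (-log10 q of 6.85) overlapped the site there. A site 3.89 kb past the 5′ end of E2f2 was called in colon samples 2, 3 and 4, at fold enrichments of 4.45, 4.18 and 3.22, and in villus samples 1 and 2, at 6.17 and 8.25, and the pooled crypt peak there had no sample behind it. A further E2f2 site, at -1.75 kb, was called in colon samples 2, 3 and 4 at 6.33, 4.24 and 5.09, with no pooled peak in crypt or villus. E2f2 therefore had 3 sites with support from several samples, and of these the intronic one at 14.4 kb was called in all compartments.

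The other factors had little VDR signal. Foxm1, which drives the genes of G2 and mitosis, had a site at -7.02 kb, nearer to the TSS of Tulp3, called in crypt sample 1 and villus sample 4 at 5.75 and 4.37. Mybl2, a partner of Foxm1 at mitotic genes, had a promoter site 0.034 kb from its TSS in crypt sample 1 alone (7.26). Cdca7, a DNA-binding protein and E2F target, had a pooled promoter peak in villus with a -log10 q of 3.2 and no supporting sample. E2f1 had no pooled peak, although 1 crypt sample had a peak in its window.

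**Figure D3:**
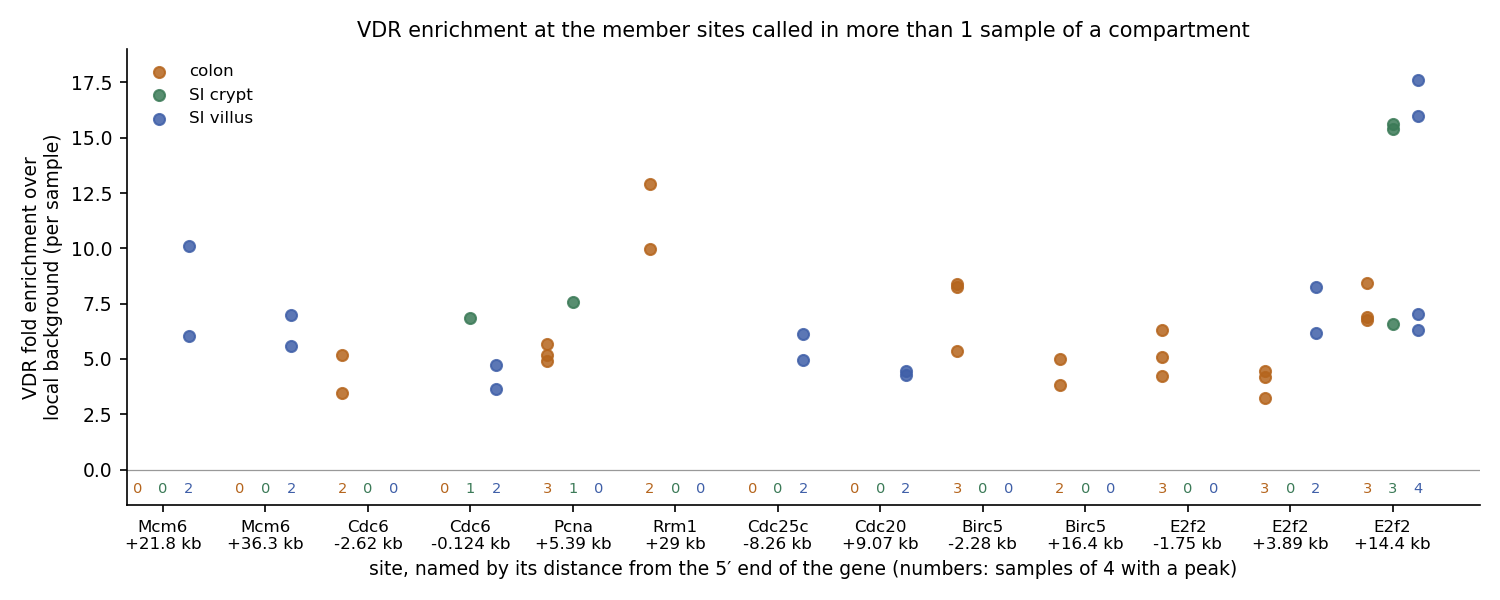
VDR fold enrichment (y axis, linear scale) in each sample at the sites near the 37 genes that more than 1 sample of a compartment called, by compartment, with the number of samples that had a peak printed under each column of points. The E2f2 site at 14.4 kb was called in 10 of 12 samples, and the Birc5 site at -2.28 kb and the Rrm1 site were called in colon samples only.

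Among the mitotic genes, Birc5, which encodes the chromosomal passenger survivin, carried the clearest site seen in colon alone. The site lay at -2.28 kb, at chr11:117708076-117708502, and colon samples 2, 3 and 4 had fold enrichments of 8.23, 5.38 and 8.37 there. No crypt or villus sample and no pooled peak of these compartments had a call at it. The pooled colon peak had a -log10 q of 33.5 and ranked 1884. Chromatin there was open in all compartments, with an ATAC-seq -log10 q of 23.8 in colon, 32.9 in crypt and 39.4 in villus. A further colon site lay 16.4 kb past the 5′ end of Birc5, nearer to the TSS of Cldn27, and was called in samples 3 and 4 at 3.83 and 5.

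The remaining mitotic genes had sites called in at most 2 samples. Cdc20, an activator of the anaphase-promoting complex, had a site 9.07 kb past its 5′ end, nearer to the TSS of Elovl1, called in villus samples 1 and 2 at 4.46 and 4.26. The promoter of Aurkb, the Aurora kinase of the chromosomal passenger complex, was called in colon sample 4 at 5.85 and villus sample 2 at 7.25. Aurka, the spindle pole Aurora kinase, had a site 24.4 kb past its 5′ end, nearer to another TSS, in colon sample 4 and villus sample 1 at 4.26 and 4.07. Plk1, a kinase of mitotic entry, had its promoter (4.93) and a coding exon (4.31) called in crypt sample 1. Sample 1 of crypt was also the sole support for Mki67, the proliferation marker, at 31.1 kb (4.58), and for Kif11, a spindle motor, at 37.4 kb in an intron (5.06). Bub1, a spindle checkpoint kinase, had a pooled villus peak (-log10 q of 4.3) that no sample supported.

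In the nucleotide and fork group, Rrm1, the large subunit of ribonucleotide reductase, had the site of highest -log10 q in colon. The site, at chr7:109619040-109619388, lay 29 kb from the 5′ end and just past the end of the gene at 109618285, with the TSS of the olfactory receptor gene Olfr543 nearest to it. Colon samples 2 and 4 had fold enrichments of 12.9 and 9.99, the other colon samples and all SI samples had no peak there, and the pooled colon peak had a -log10 q of 51.5, at rank 1047. The Rrm1 promoter was called in colon sample 2 at 3.35. Pcna, the sliding clamp of DNA polymerases, had a site 5.39 kb past its 5′ end in colon samples 1, 2 and 4 at 5.2, 5.68 and 4.89 and in crypt sample 1 at 7.56, and the TSS of 5730494N06Rik was nearest to it. It was the only site near the 37 genes that colon sample 1 called. Rrm2, the small subunit of the reductase, had a promoter call in villus sample 1 at 3.91. Tyms, thymidylate synthase, and Tk1, thymidine kinase, had sites 13.6 and 15.7 kb past their 5′ ends in crypt sample 1 at 6.82 and 4.03.

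In the helicase and licensing group, Mcm6 had its best supported sites in villus, where they lay nearer to the TSS of its neighbour Lct, the lactase gene of villus enterocytes. In humans, an intron of MCM6 is known to hold an enhancer of lactase. An intronic site 21.8 kb past the 5′ end of Mcm6 was called in villus samples 2 and 4 at 6.04 and 10.1, and a site 36.3 kb past it in villus samples 1 and 2 at 5.6 and 6.97. Colon samples had no peak at either. The Mcm6 promoter was called in crypt sample 1 at 7.92 and villus sample 1 at 4.17. Cdc6, which loads the helicase with Cdt1, had a site at -2.62 kb in colon samples 2 and 4 (5.17 and 3.46) and a promoter site in crypt sample 1 (6.83) and villus samples 1 and 4 (4.71 and 3.63). The pooled colon peak at the Cdc6 promoter, with a -log10 q of 9.38, had no sample behind it. Cdt1 had a site 7.01 kb past its 5′ end, nearer to the TSS of Aprt, called in 1 sample of each compartment: colon sample 4 (4.1), crypt sample 1 (3.6) and villus sample 4 (3.91).

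The other helicase genes had single calls. Mcm7 had a promoter site in crypt sample 1 (5.73) and villus sample 2 (7.52), and single calls at 16.9 kb in colon sample 4 (3.95) and at 6.48 kb in crypt sample 1 (4.1). Mcm2 had a site at -3.24 kb, nearer to the TSS of Tpra1, in colon sample 4 (4.12). Gins2, of the complex that joins the helicase at the fork, had an intronic site in colon sample 4 (3.18) and villus sample 1 (2.97), and its partner Gins1 had a site at -0.981 kb, nearer to the TSS of Abhd12, in crypt sample 1 (4.23) and villus sample 2 (4.13). Mcm4 had no peak in the deposited pooled intervals, although the peak caller had called one on the merged reads of each compartment. The methods name a filter against blacklisted regions, and whether it took this peak out was not tested. The deposited lists of single samples kept a peak there. The Mcm4 peak, at -0.622 kb, nearer to the TSS of Prkdc, was present in colon samples 2, 3 and 4 at 4.94, 4.74 and 7.43, in crypt sample 4 at 4.56 and in villus sample 2 at 7.04. A promoter peak of Pcna that the intervals also lacked was called in crypt sample 1 at 4.74 and villus samples 1 and 2 at 7.77 and 5.42. With all the peaks that the caller gave, 24 of the 37 genes had a pooled VDR peak in colon, 21 in crypt and 18 in villus.

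Of the 7 genes for cyclins and for Cdk1 and its activator, 4 had a site that a sample called, and none had one called in more than 2 samples of a compartment. Sites were formed from pooled peaks, and Ccne1, without one, had a peak in 1 villus sample. Cdc25c, a phosphatase that activates Cdk1, had a site at -8.26 kb, nearer to the TSS of Fam53c, in villus samples 1 and 4 at 4.94 and 6.11. Cdk1, the kinase of mitosis, had a site at -2.86 kb in colon sample 4 at 4.92. Ccnb2, a B-type cyclin, had its promoter called in crypt sample 1 (6.41) and villus sample 1 (5.36), and a site at 20.9 kb in crypt sample 1 (4.03). Ccne2, an E-type cyclin of S-phase entry, had a site near its TSS in crypt sample 1 (5.75).

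Most of the 37 genes had an open promoter in all 3 compartments. ATAC-seq peaks lay within 1 kb of a TSS for 33 of 37 genes in colon, 33 in crypt and 33 in villus (89.2% each), against 51.4%, 58.4% and 54.8% of all genes in these compartments. The promoters of Mcm4, Pcna and Aurka, which the pooled intervals lacked, had a peak in all 9 samples, and with them the count was 36 in each compartment. Tk1 was the only gene with no promoter peak in any sample. The median fold enrichment of the open promoters was 9.89 in colon, 9.51 in crypt and 7.34 in villus, against 8.3, 8.11 and 6.88 for all open promoters of these compartments. The same 33 genes thus had an open promoter in colon, in the crypt with its dividing cells and in the villus. For E2f2, the pooled peak in villus lay at another TSS than in colon and crypt.

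Promoter enrichment was compared between compartments with limma on log2 fold enrichment, each sample centred on its median, for 8316 genes with a promoter peak in all 9 samples. Before centring, the median of all genes was higher in colon than in crypt by 0.182 and than in villus by 0.357, and higher in crypt than in villus by 0.175 on the log2 scale, and the differences below are relative to these shifts. Of the 32 genes of the list in the fit, 0 were higher and 6 lower in colon than in crypt, against 6.59% higher and 13% lower among all genes. For colon against villus, 3 were higher and 3 lower, against 6.08% and 13.3%. For crypt against villus, 3 were higher and 1 lower, against 3.76% and 2.32%. The median log2 differences of the 32 genes were -0.03, -0.01 and 0.05, against -0.04, -0.03 and -0.01 for all genes. The split of higher to lower calls over all genes moved with the scaling. It was 548 to 1080 for colon against crypt, 506 to 1104 for colon against villus and 313 to 193 for crypt against villus with centring. Without centring it was 331 to 154, 2153 to 155 and 280 to 6, and with quantile normalization 598 to 679, 653 to 745 and 298 to 190.

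Top2a, which untangles chromosomes before they separate, was less open in villus than in either of the other compartments. Its promoter had fold enrichments of 14.3, 13.4 and 15.6 in colon, 12.1, 15 and 13.2 in crypt, and 9.04, 5.3 and 7 in villus. All villus samples were below all others. The log2 difference was 0.70 (SE 0.17, limma adjusted p = 0.00464) for colon against villus and 0.77 (SE 0.17, adjusted p = 0.00814) for crypt against villus. The crypt to villus difference was 0.63 (adjusted p = 0.0686) without crypt sample 2 and 0.55 (adjusted p = 0.0597) without villus sample 2.

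Mybl2 was most open in crypt. Its promoter had 10.2, 11.3 and 11.7 in colon, 16.8, 15 and 14.7 in crypt, and 13.1, 8.38 and 6.66 in villus, so that the crypt samples were above all others. The log2 difference was -0.67 (SE 0.14, limma adjusted p = 0.00158) for colon against crypt and 0.61 (SE 0.14, adjusted p = 0.012) for crypt against villus. Without crypt sample 2 or villus sample 2, the crypt to villus difference was 0.57 (adjusted p = 0.0573) or 0.53 (adjusted p = 0.0597).

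Cdc25c and Cdk1 also had their highest means in crypt, at 18.2 ± 0.529 and 14.1 ± 1.49 (SD, n = 3). The promoter of Cdc25c had 12.9, 15.9 and 18.6 in colon, 17.8, 18 and 18.8 in crypt, and 15.9, 12.2 and 9.19 in villus. It was lower in colon than in crypt (log2 difference -0.40, SE 0.12, limma adjusted p = 0.0198) and higher in crypt than in villus (0.41, SE 0.12, adjusted p = 0.0391). The colon call was lost without colon sample 1 or 2 or crypt sample 2 or 3 (adjusted p = 0.0583 to 0.1), and the villus call without any sample but villus sample 1 (adjusted p = 0.0507 to 0.149). With quantile normalization both calls were lost (adjusted p = 0.174 and 0.134), and the villus call was lost without centring (0.067) and with the replicate block (0.0512). The promoter of Cdk1 had 9.72, 11.7 and 12.8 in colon, 14.7, 12.4 and 15.2 in crypt, and 12.9, 9.2 and 7.19 in villus, and was lower in colon than in crypt (-0.49, SE 0.14, limma adjusted p = 0.012). That call was lost without colon sample 1 (adjusted p = 0.0506) or crypt sample 3 (0.0516). The colon and crypt samples overlapped for both genes before centring. After centring they did not: the highest colon and lowest crypt values were 0.675 and 0.812 for Cdc25c and 0.132 and 0.489 for Cdk1.

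Mcm4, Mcm5 and Ccne1 were also lower in colon than in crypt. Mcm4 had 10.6, 12.9 and 14.1 in colon, against 14.9, 15.7 and 13.8 in crypt (log2 difference -0.43, SE 0.13, limma adjusted p = 0.0196). Ccne1, the other E-type cyclin, had 11.2, 12.2 and 11.1 in colon, against 14.1, 13.3 and 13.3 in crypt, with no overlap (-0.42, SE 0.13, adjusted p = 0.0274). Mcm5 had 8.61, 11.9 and 14.1 in colon, 15.9, 10.8 and 14.8 in crypt, and 12.8, 14.4 and 12.5 in villus, and was lower in colon than in crypt (-0.45, SE 0.15, adjusted p = 0.03) and than in villus (-0.58, SE 0.15, adjusted p = 0.00667). None of the 6 calls for colon against crypt held without centring, where the adjusted p was 0.138 for Mybl2 and 0.328 to 0.432 for the other 5. The Mcm4 call was also lost without colon sample 1 or 2 or crypt sample 2 (adjusted p = 0.0661 to 0.115), the Ccne1 call without colon sample 2 or 3 or crypt sample 1 or 2 (0.05 to 0.138) and the Mcm5 call without colon sample 1 or 2 or crypt sample 1 or 3 (0.074 to 0.176) and with quantile normalization (0.0522). The Mcm5 call against villus was lost without colon sample 1 (0.0615).

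Cdc6 and Bub1 were more open in colon than in villus, and neither passed for colon against crypt. The Cdc6 promoter had 11.7, 15.4 and 15.8 in colon, 8.68, 11.1 and 8.58 in crypt, and 8.48, 7.7 and 6.13 in villus. Before centring, all colon samples were above all SI samples, but after centring colon sample 1 (0.28) was below crypt sample 2 (0.34). The Cdc6 log2 difference was 0.59 (SE 0.16, limma adjusted p = 0.00998) for colon against villus, and 0.41 (SE 0.16, adjusted p = 0.0633) for colon against crypt. Bub1 had 11.5, 12.9 and 16.8 in colon, against 9.98, 8.08 and 5.33 in villus (0.49, SE 0.16, limma adjusted p = 0.0283), and this call was lost without colon sample 1 or 3 or villus sample 2 or 3 (adjusted p = 0.0502 to 0.157). For colon against crypt its log2 difference was 0.17 (SE 0.16, limma adjusted p = 0.475).

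Rrm1 and Plk1 ran the other way. The Rrm1 promoter had 8.2, 8.96 and 13.8 in colon, 8.38, 8.94 and 10.1 in crypt, and 12.6, 14 and 11.6 in villus. It was lower in colon than in villus (log2 difference -0.69, SE 0.16, limma adjusted p = 0.00345) and lower in crypt than in villus (-0.66, SE 0.16, adjusted p = 0.016). Plk1 had 4.36, 7.51 and 7.79 in colon, against 9.78, 8.04 and 6.07 in villus, which overlapped before centring (-0.66, SE 0.19, adjusted p = 0.0145). Without colon sample 1 or villus sample 1 the adjusted p for Plk1 was 0.12 or 0.053, and for Rrm1 in crypt against villus it was 0.0694 without crypt sample 1, 0.0746 without villus sample 2 and 0.179 without centring. Without centring, the Rrm1, Plk1 and Mcm5 differences between colon and villus had an adjusted p of 0.191, 0.348 and 0.363.

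**Figure D4:**
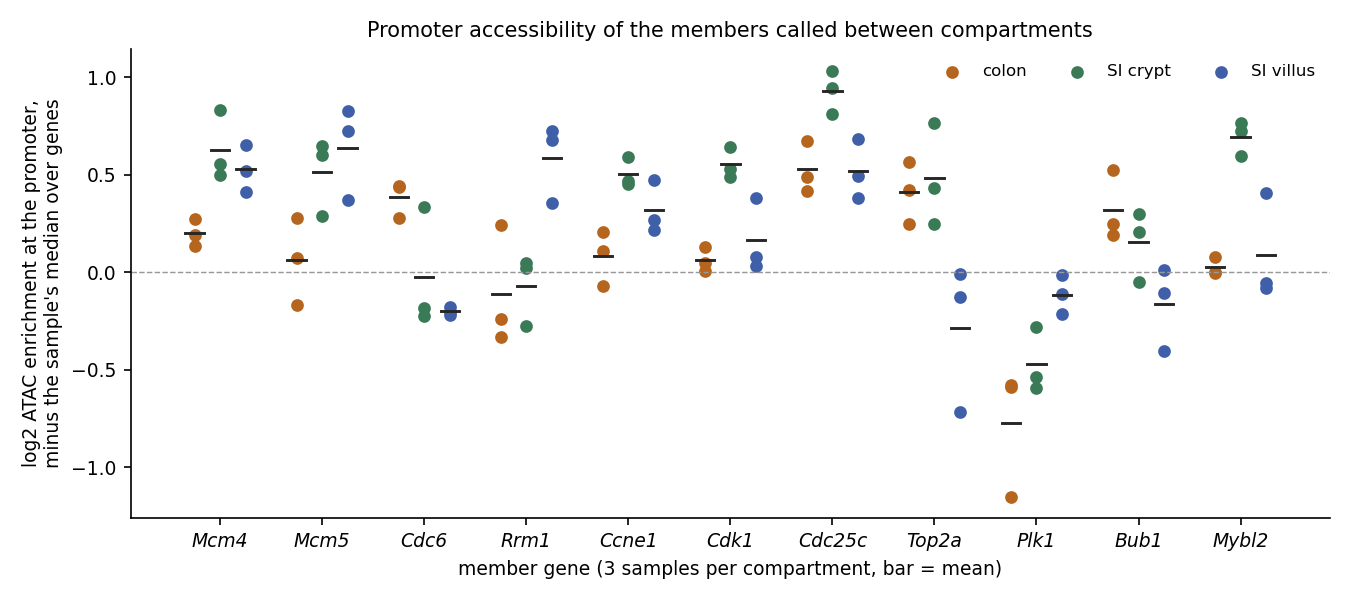
ATAC-seq promoter fold enrichment on the log2 scale, minus the median of all genes in the same sample (y axis), in each sample (points) with the mean (bars), for the genes of the list called between compartments by limma, with 3 samples each of colon, crypt and villus. All 3 villus samples were below the others for Top2a, and all 3 crypt samples were above the others for Mybl2.

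Cdt1, Tyms, Tk1, E2f2 and Birc5 were outside this fit because at least 1 sample had no promoter peak. Birc5 had 11.4, 13 and 12.1 in colon, 5.68, 6.24 and 6.85 in crypt, and 6.58 and 4.67 in villus samples 1 and 2, with no peak in sample 3. All colon values were above all SI values. In the alternative fit, which asked for a promoter peak in at least 2 samples of each compartment, Birc5 was higher in colon than in crypt (log2 difference 0.79, SE 0.18, limma adjusted p = 0.00297) and than in villus (0.93, SE 0.20, adjusted p = 0.00193). Birc5 thus had a VDR site called only in colon samples and a promoter higher in colon than in crypt and villus. Cdc6 had a site at -2.62 kb called only in colon samples and a promoter higher in colon than in villus. Pooled peaks at that Cdc6 site came from 2 compartments, however, and the VDR site at the Cdc6 promoter was called in crypt and villus samples only. Rrm1 went the other way: its site at 29 kb was called only in colon samples, and its promoter was lower in colon than in villus. A relation between site and promoter was not tested. E2f2 was weakly open within 1 kb of its TSSs: samples 2 and 3 of colon had 5.21 and 7.53, samples 1 and 2 of crypt 4.65 and 4.98. The villus samples had 4.65, 3.57 and 4.13. The summit of the pooled E2f2 peak was at 135728157 in colon and 135728179 in crypt, but at 135736052 in villus, at another TSS. These E2f2 values therefore need not describe 1 promoter. Tyms had 5.57 in colon sample 1, 5.82 and 6.47 in crypt samples 1 and 3, and 5.15 in villus sample 1.

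The promoters were also read for the elements through which cell cycle genes are known to be timed: E2F sites for S-phase genes, and the cell cycle homology region (CHR) and the CCAAT box bound by NF-Y for G2 and mitotic genes. RefSeq promoters of GRCm38.p6, from 250 bp before to 50 bp after the TSS, were matched for 29 of the 37 genes by symbol, and searched on both strands for TTTCCCGC, TTTGGCGC, TTTCGCGC or TTTGCCGC (E2F), TTTGAA or TTCGAA (CHR) and CCAAT. Overlapping matches were counted. Here are 4 of them from 180 to 1 bp before the TSS, on the strand of the gene, chosen because they carry the elements of the 2 groups. Capitals mark E2F matches in Mcm5 and Mcm6.
Mcm5: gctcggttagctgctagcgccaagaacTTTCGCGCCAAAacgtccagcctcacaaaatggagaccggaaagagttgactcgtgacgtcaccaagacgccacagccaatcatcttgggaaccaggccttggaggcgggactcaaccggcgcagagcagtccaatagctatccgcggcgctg
Mcm6: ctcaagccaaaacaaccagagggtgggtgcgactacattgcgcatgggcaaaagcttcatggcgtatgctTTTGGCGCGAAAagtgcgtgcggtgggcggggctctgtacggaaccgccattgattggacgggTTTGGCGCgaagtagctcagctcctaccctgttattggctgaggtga
Capitals mark CHR matches in Cdk1 and in Top2a, which has 4 of them. Cdk1 also has 1 E2F match, at -131 bp, left in lower case.
Cdk1: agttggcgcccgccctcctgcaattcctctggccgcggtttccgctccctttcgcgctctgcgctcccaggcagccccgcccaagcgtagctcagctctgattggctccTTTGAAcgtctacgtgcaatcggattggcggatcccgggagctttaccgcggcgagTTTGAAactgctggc
Top2a: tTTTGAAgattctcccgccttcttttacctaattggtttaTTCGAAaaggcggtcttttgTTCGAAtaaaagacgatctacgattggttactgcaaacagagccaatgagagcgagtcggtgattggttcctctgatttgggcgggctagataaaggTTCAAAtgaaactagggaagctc
In Mcm5 and Mcm6, a pair of E2F matches overlapped on opposite strands and reads as 1 longer run.

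E2F letters were found in 9 of 29 promoters (31%), against 2.26% of all 32851 RefSeq promoters. CHR letters were found in 12 (41.4%), against 19.2%, and CCAAT in 20 (69%), against 37.4%. E2F and CHR letters were spread unevenly over the roles. E2F letters lay in 6 of 7 helicase and licensing promoters and 0 of 9 mitotic ones, whereas CHR letters lay in 8 of 9 mitotic promoters and 2 of 7 helicase and licensing ones. The nucleotide and fork promoters had 0 of 5 for E2F and 0 of 5 for CHR letters. The cyclin and kinase promoters, with Cdk1, had 1 of 4 for E2F and 2 of 4 for CHR letters. The transcription factor promoters had 2 of 4 and 0 of 4. CCAAT lay in 5 of 7 helicase and licensing, 3 of 5 nucleotide and fork and 8 of 9 mitotic promoters. A match describes the letters of a window and not a bound factor.

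**Figure D5:**
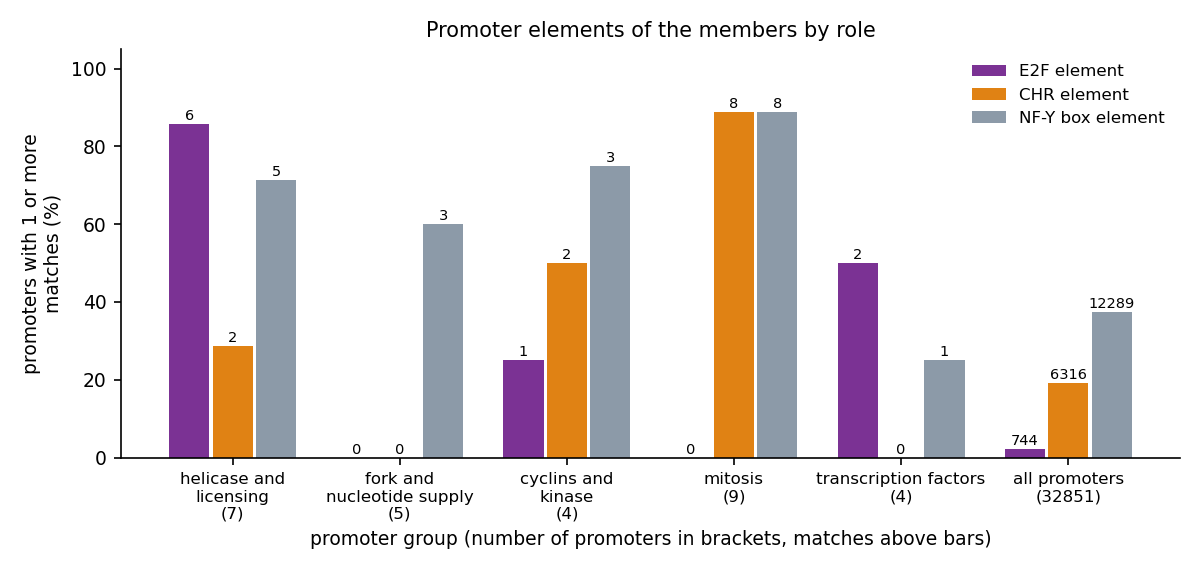
Share of promoters (percent, y axis) that hold E2F, CHR or NF-Y box (CCAAT) letters, for the genes of the list by role and for all RefSeq promoters. E2F letters were in 6 of 7 helicase and licensing promoters and 0 of 9 mitotic promoters, and CHR letters in 8 of 9 mitotic promoters.

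Other genes of the pathway gave a wider view of the same compartments, from lists of 37 replication, 26 mitosis and 23 G1 and S control genes. Pooled VDR peaks lay near 24 of 37 replication, 20 of 26 mitosis and 18 of 23 G1 and S control genes in colon, near 19, 12 and 16 in crypt, and near 19, 15 and 16 in villus. As shares this was 64.9%, 76.9% and 78.3% in colon, against 51.5% of all genes and 77.1% of genes with open promoters. In crypt the shares were 51.4%, 46.2% and 69.6%, against 38.9% and 56.1%, and in villus 51.4%, 57.7% and 69.6%, against 44.8% and 67.7%. Peaks supported by at least 1 sample lay near 17, 15 and 13 in colon, 14, 12 and 15 in crypt, and 13, 10 and 11 in villus, against 36.1%, 30.7% and 31.5% of all genes and 55.4%, 44.9% and 48.4% of genes with open promoters in these compartments. The strongest VDR sites of the pathway were in these lists and not among the 37 genes.

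Gmnn, which encodes geminin, the inhibitor of Cdt1, had the strongest site of the pathway. A VDR peak at -0.134 kb from its TSS was called in all 12 samples, with fold enrichments of 14.8, 20.5, 13.8 and 16.8 in colon, 26.2, 30.2, 13.9 and 16.1 in crypt, and 34.6, 37.3, 17.5 and 16.3 in villus. The -log10 q of the pooled peak was 346 in colon, 461 in crypt and 926 in villus, where it ranked 8 of 18078. As at E2f2, samples 1 and 2 of both SI compartments had the highest values. Nek2, a centrosomal kinase, had a site 18.1 kb from its TSS in 3 colon, 4 crypt and 4 villus samples, with a -log10 q of 77.6, 156 and 328 in these compartments. E2f3, another activator E2F, had a site at -1.03 kb from its TSS that every one of the 12 samples called, at a pooled -log10 q of 48.9, 95.8 and 156 in these compartments. The sequences at the Gmnn and Nek2 summits, mm9 plus strand with the DR3 match in capitals (2 mismatches in Gmnn and 1 in Nek2), can be set beside that of E2f2.
Gmnn, chr13:24853867-24853986: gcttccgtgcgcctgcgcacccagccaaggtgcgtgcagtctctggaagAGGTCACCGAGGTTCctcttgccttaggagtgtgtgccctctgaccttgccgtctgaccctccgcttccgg
Nek2, chr1:193663392-193663511: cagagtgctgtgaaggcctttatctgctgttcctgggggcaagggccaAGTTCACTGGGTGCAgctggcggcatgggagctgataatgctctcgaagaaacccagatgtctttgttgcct

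The next sites in this order were weaker and often nearer to another gene. The site near Kif4, a chromosome motor, was called in 4 crypt and 2 villus samples and no colon sample, and lay closest to the TSS of Gdpd2. Sites near E2f5, Chaf1a and Rfc4 lay closest to the TSS of 1810022K09Rik, Sh3gl1 and Eif4a2, and the site near E2f6, a repressor E2F, closest to its own. Chaf1a was called in 2 villus samples only, at 14.8 and 10.5, and the pooled lists of colon and crypt had no peak there. Of the sites described, those at geminin, Nek2, E2f3 and E2f2 were called in at least 10 of the 12 samples and those near E2f5 and Rfc4 in 8. Among the sites in the deposited pooled intervals, no gene of the MCM helicase and no cyclin gene had one called in more than 2 samples of any compartment. The Mcm4 site, which those intervals lacked, was called in 3 colon samples.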

How the data were processed

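The authors aligned reads to mm9 and called peaks without a control sample at a q value of 0.05 (cutadapt 1.9.1, Bowtie2 2.2.6, Picard 2.18.27, SAMtools 0.1.19, bedtools 2.17.0 and MACS2 2.1.0.20150731 in the submitters' processing notes), on each sample and on the merged reads of a compartment. For the ChIP-seq reads, the methods of the study name NGmerge, not cutadapt, as the tool that removed adapters. The deposited lists give the fold enrichment as a ratio to local background and the q value as -log10 q. Read counts are absent from these lists, and count models were not used. The authors filtered peaks against a list of blacklisted mm9 regions by the methods of the study, and the deposited pooled VDR intervals lacked 786 to 999 of the called peaks. The deposited lists of single VDR samples lacked 1 to 10 of theirs. Whether that filter alone took the peaks out was not tested. Lists of differential sites made by the authors with DiffBind hold their own comparisons and were not used.

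Peaks were counted at an overlap of at least 1 bp with Python 3.11.15, numpy 2.4.6 and scipy 1.17.1, and figures were drawn with matplotlib 3.10.9. Peak calls were compared with Fisher's exact test (two-sided) and log2 fold enrichment with limma 3.58.1 in R 4.3.3 (all samples of an assay in 1 fit, trend, Benjamini-Hochberg adjustment over all fitted genes, adjusted p of 0.05). The number of samples limits the precision. A ChIP-seq sample held 10588783 to 17970894 fragments, and an ATAC-seq sample 32767083 to 62692175 tags. Same-numbered SI crypt and SI villus VDR samples deviated together (r = 0.527, 0.394, 0.586 and 0.677 over 323 genes), so a replicate block was also fitted, in each assay over all compartments. Crypt and villus VDR pairs with different numbers had r of -0.637 to 0.464. Same-numbered VDR pairs with colon had r of -0.293 to 0.183, and same-numbered ATAC-seq pairs had r of -0.18 to 0.0467. The steps were tested on simulated data. Where RefSeq lists several promoters for a gene, the first was used.

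The 37 genes and the lists of other genes were chosen with earlier results of these data known, and so were the tests. All 37 genes are accounted for. Those with a supported VDR peak or a promoter call are given with values and the others by counts, and 8 other pathway genes were named by the highest -log10 q. Alternatives were other windows, a -log10 q of at least 5, support by samples, equal numbers of peaks, other scalings, other filters, a replicate block, leaving out each sample and, added after seeing the data, all peaks of the caller, also those that the intervals lack.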

Additional observations from a re-analysis of the deposited data

Results flagged for a closer look

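Crypt VDR sample 1 stood far from the other samples of its group in the number of cell cycle genes with a VDR peak. It had 17 of the 37 genes, against 1, 0 and 2 in crypt samples 2 to 4, and the gap to the next sample was 0.882 of the range of the group. It also had a VDR peak at 10 promoters of the 37 genes, against 0, 0 and 1, with a gap of 0.9 of the range. Both gaps were past the critical value of Dixon's test at 95% for 4 samples. Of 7 groups of samples examined in this way, 2 passed, both through this sample. The promoter count is part of the wider count, so these 2 results are not independent. Chance passes about 1 in 20 groups, but this sample was already set apart before the test, so that rate does not apply to it. The sample had 13381 peaks and kept 28.5% of its fragments after removal of duplicates, against 1136 to 2480 peaks and 49.6% to 70.4% of fragments in the other crypt samples. The part of depth and duplication in these counts was not tested.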

How the results depend on the processing

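The number of the 37 genes near a VDR peak depended on how a peak was accepted. In colon, where it was 22, it was 14 by nearest TSS, 13 at a -log10 q of at least 5, 13 with equal numbers of the strongest peaks, 12 with support from 1 sample and 5 with support from 2, and 5 to 12 when 1 colon sample was left out, with 5 without colon sample 4. In crypt, where it was 20, it was 11 by nearest TSS, 9 at a -log10 q of at least 5, 1 with support from 2 samples, 1 with support from samples 2 to 4, and 1 to 15 when 1 sample was left out, with 1 without crypt sample 1. In villus, where it was 16, it was 27 with 50 kb on each side, 9 by nearest TSS, 5 with support from 2 samples and 9 to 11 when 1 sample was left out. All peaks of the caller, also those that the intervals lack, an alternative added after seeing the data, moved these counts by less than 1.5 times, as did the count of open promoters under every alternative run (29 to 36 genes). By nearest TSS, the share of all genes fell to 39.8% in colon, 28.4% in crypt and 33.8% in villus. The 37 genes were then at 37.8%, 29.7% and 24.3% in these compartments. Shares of all genes with supported peaks are given above, and those under the other rules are not given here.

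For promoter enrichment, colon against crypt called 1628 genes, 485 without centring and 1015 to 2054 when 1 sample was left out, and 6 genes of the list, 0 without centring and 2 to 9 when 1 sample was left out. Colon against villus called 1610 genes, 2459 on the log2 of -log10 q and 1025 to 1717 when 1 sample was left out, and 6 genes of the list, 3 to 6 when 1 sample was left out. Crypt against villus called 506 genes, 286 without centring, 804 on the log2 of -log10 q and 204 to 710 when 1 sample was left out, and 4 genes of the list, 2 without centring and 0 to 6 when 1 sample was left out. Cdc6 and Top2a in colon against villus passed under every alternative run (adjusted p up to 0.0492 and 0.049), and no named call changed sign. The replicate block ended the Cdc25c call in crypt against villus (adjusted p = 0.0512) and no other call for a named gene. That call was also lost without centring (adjusted p = 0.067) and with quantile normalization (0.134), as were the Cdc25c (0.174) and Mcm5 (0.0522) calls in colon against crypt with quantile normalization and the Rrm1 call in crypt against villus without centring (0.179).

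For VDR enrichment, colon against crypt called 12 genes, 0 without centring, 40 with the replicate block and 2 to 43 when 1 sample was left out. Colon against villus called 104 genes, 24 without centring, 59 with a peak required in all 12 samples and 30 to 222 when 1 sample was left out. Crypt against villus called 0 genes, 4 with the replicate block and 0 to 2 when 1 sample was left out. The E2f2 difference kept its sign and passed under none of these. The peak lists limit depth: a gene without a peak may still be bound below the threshold of a shallow sample.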
